A study of Mus musculus with 2 samples.

Results

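The peaks described here are the 845 sites at which anti-FLAG CUT&Tag signal was called and assigned to an axon guidance ligand or receptor gene, out of 99782 annotated peaks of the library. They were taken by gene symbol alone, from a fixed set of families: semaphorins of classes 3 to 7, plexins, neuropilins, ephrins, Eph receptors, Slits, Robos, netrins, netrin-Gs, Unc5 receptors and Dcc. No signal value entered that choice. The 71 genes of these families were all protein-coding in GENCODE M21, and 69 of them had at least 1 assigned peak. Epha1 and Ntn5 had none.

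Hippocampus of mice of the strain C57BL/6J and the genotype CamK-PARIS gave 2 libraries, 1 per antibody: anti-FLAG, and IgG as the negative control. In CUT&Tag the antibody tethers a transposase, protein A fused to Tn5, that cuts and tags the DNA close to the antibody's target. The target was PARIS, the product of mouse Zfp746, which represses transcription and binds DNA through zinc fingers; per the labels, anti-FLAG served to capture it. The question was where PARIS lies on hippocampal chromatin. Both libraries carry the same genotype, no treatment was given, and a library from mice without the transgene was not analysed here. Age, sex, the number of animals, any pooling and the promoter that drives the transgene are not stated in the labels beyond the name of the genotype.

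Each antibody had 1 library, so no value below has a replicate error and no difference was tested. The IgG library entered only as the control in the authors' peak calling. Intervals are Wilson 95% intervals that cover counting error over peaks or genes, which are not independent replicates. The files give no read counts, so the depth is unknown. They hold no expression values, so the labelled tissue could not be checked against marker genes, and bulk tissue does not show in which cells a peak arose.

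Growing axons steer by cues that attract or repel the growth cone, and in the adult hippocampus the same proteins shape dendritic spines, synapses and the layering of inputs. Semaphorins signal through plexins, with neuropilins as co-receptors for the secreted class 3 members. Ephrins are membrane-bound ligands of the Eph receptor tyrosine kinases and can also signal backward into the cell that carries them. Slits repel axons through Robo receptors. Netrins attract through Dcc and repel through Unc5 receptors, while the netrin-Gs are membrane-anchored relatives that act at synapses.

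Each peak carries the authors' maximum signal, the highest coverage reached in it, and a total signal, the coverage summed over its bases. Both are in coverage units of unknown scaling and are compared only within this library. The 6 stretches of DNA that follow are reference sequence (GRCm38.p6, mm10) at the region of maximum signal of tall guidance peaks. They are shown as examples of tall peaks in unlike places, and not every taller guidance peak is among them. Each is 200 bases, 5′ to 3′ along the strand of the gene, counted from 1, and capitals mark the region of maximum signal. None overlaps an annotated exon. The first 3 lie upstream of gene starts and the last 3 inside introns.
Ephb3, chr16:21204438-21204637 (+): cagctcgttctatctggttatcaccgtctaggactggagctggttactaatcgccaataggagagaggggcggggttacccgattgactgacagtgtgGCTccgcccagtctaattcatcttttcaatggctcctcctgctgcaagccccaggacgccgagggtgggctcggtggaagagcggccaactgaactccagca
Plxnb2, chr15:89180794-89180993 (−): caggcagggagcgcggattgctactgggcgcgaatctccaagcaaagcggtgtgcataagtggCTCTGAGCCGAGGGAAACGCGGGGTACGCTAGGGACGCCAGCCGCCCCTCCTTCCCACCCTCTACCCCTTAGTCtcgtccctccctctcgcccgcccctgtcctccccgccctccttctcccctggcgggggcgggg
Unc5a, chr13:54948965-54949164 (+): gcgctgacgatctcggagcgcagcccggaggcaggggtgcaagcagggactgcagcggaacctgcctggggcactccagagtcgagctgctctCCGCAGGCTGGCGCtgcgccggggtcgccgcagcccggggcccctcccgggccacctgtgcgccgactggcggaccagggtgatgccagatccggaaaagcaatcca
Slit1, chr19:41697497-41697696 (−): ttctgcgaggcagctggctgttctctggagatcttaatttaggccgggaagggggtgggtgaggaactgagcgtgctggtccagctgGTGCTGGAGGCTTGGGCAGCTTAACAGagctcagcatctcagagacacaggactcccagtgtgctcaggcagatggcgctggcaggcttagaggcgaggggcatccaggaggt
Sema3g, chr14:31227107-31227306 (+): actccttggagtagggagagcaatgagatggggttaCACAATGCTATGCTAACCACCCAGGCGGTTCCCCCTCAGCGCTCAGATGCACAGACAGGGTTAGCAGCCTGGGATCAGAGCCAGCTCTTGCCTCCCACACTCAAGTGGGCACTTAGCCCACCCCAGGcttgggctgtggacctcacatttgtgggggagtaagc
Ephb1, chr9:101975639-101975838 (−): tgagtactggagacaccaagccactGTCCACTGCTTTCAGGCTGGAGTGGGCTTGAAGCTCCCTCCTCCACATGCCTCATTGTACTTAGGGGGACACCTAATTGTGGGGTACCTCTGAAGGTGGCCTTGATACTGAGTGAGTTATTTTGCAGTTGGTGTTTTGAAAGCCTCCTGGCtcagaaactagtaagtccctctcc

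In these chosen examples the CpG counts were higher upstream of starts than in introns, while the GC contents overlapped. The windows upstream of Ephb3, Plxnb2 and Unc5a held 10, 17 and 19 CpG dinucleotides, at GC contents of 57.0%, 69.0% and 72.0%. The intronic windows of Slit1, Sema3g and Ephb1 held 5, 2 and 0 CpG, at 60.0%, 58.0% and 51.0% GC.

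Guidance genes carried a peak at their start more often than protein-coding genes in general. A peak lay within 1 kb of an annotated transcript start in 53 of 71 guidance genes, or 74.6% (63.4 to 83.3), where the share over all 21938 protein-coding genes was 46.7%. At least 1 peak was assigned to 69 of the 71, against 71.0% of all protein-coding genes. With only the 5′ end of each gene counted as its start, the figures were 46 of 71 genes, or 64.8% (53.2 to 74.9), against 38.1%. These genes are long, with a median length of 56.6 kb against 17.4 kb, and had a median of 4 annotated starts against 3. The part of length and of the number of starts in the difference was examined only through length classes. Within length classes the guidance share was 65.7% (49.2 to 79.2) of 35 genes up to 50 kb, against 41.6%. It was 82.4% (59.0 to 93.8) of 17 genes between 50 and 200 kb, against 62.1%. For the 19 genes over 200 kb it was 84.2% (62.4 to 94.5) against 70.9%. By this measure the value over all genes lay inside the guidance interval in the 2 longer classes and below it in the shortest. At the gene 5′ end, genes between 50 and 200 kb had 76.5% (52.7 to 90.4) against 47.0%, so there the value over all genes also lay below the interval, while over 200 kb, at 68.4% (46.0 to 84.6) against 53.0%, it lay inside.

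**Figure D1:**
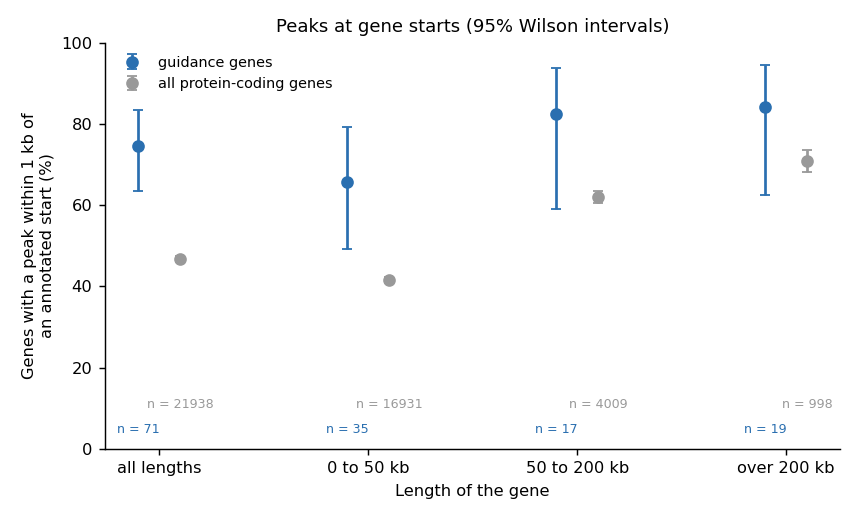
Share of genes with a peak within 1 kb of an annotated start (%, y axis) for all lengths and for 3 classes of gene length (x axis). Blue points are guidance genes, grey points all protein-coding genes, and bars are Wilson 95% intervals. The guidance point lies above the grey point in each class, and its interval takes in the grey point in the classes above 50 kb.

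Many peaks in this library have a flat profile. A peak was called constant-height when its total signal was at least 0.99 of its maximum times its width, as in a rectangle. Of the guidance peaks 530, or 62.7% (59.4 to 65.9), were of this kind, against 63.3% of all annotated peaks, and the other 315 are called summit-bearing here. Guidance genes with a summit-bearing peak within 1 kb of a start numbered 45 of 71, or 63.4% (51.8 to 73.6), against 32.1% of protein-coding genes. The height of guidance peaks was that of the library. Their median maximum signal was 104 (quartiles 69 and 133, range 6 to 631) against 101 (66 and 135) over all annotated peaks. For summit-bearing peaks alone the medians were 136 and 134. The highest 10% of all peaks by maximum signal held 85 guidance peaks, or 10.1%, against 10.1% of all annotated peaks.

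**Figure D2:**
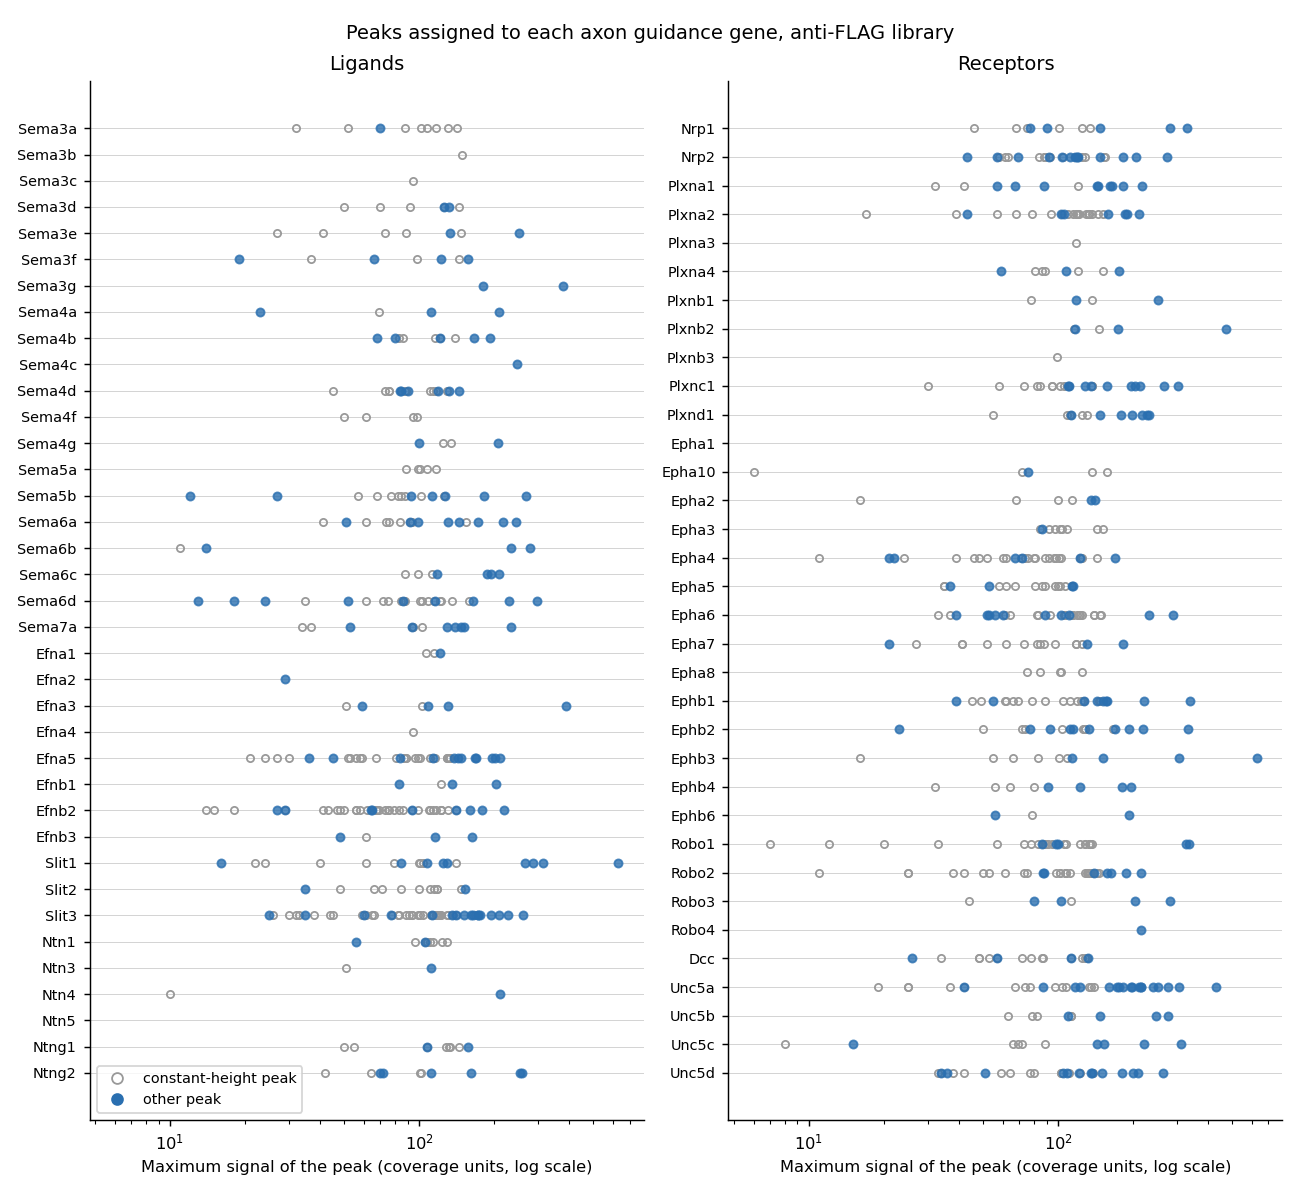
Maximum signal (coverage units, log scale) of each peak assigned to each guidance gene, with ligands on the left and receptors on the right. Filled blue points are summit-bearing peaks and open grey points constant-height peaks. Ephb3 and Slit1 each have 1 peak near 630, and 0 of the 530 constant-height peaks are in the top 10% of all peaks.

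Receptor genes had a start peak in 27 of 34 cases (79.4%, 63.2 to 89.7) and ligand genes in 26 of 37 (70.3%, 54.2 to 82.5). At the gene 5′ end the counts were 27 of 34 receptors and 19 of 37 ligands, or 51.4% (35.9 to 66.6). The highest start peak of a gene had a median maximum signal of 187 over those receptors (91 to 631) and 158 over those ligands (10 to 388), so the ranges overlapped widely.

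Among the ligand groups, the class 3 semaphorins had a start peak in the smallest share of genes. It was 28.6% (8.22 to 64.1), an interval that takes in the 46.7% of all protein-coding genes. The class 3 genes, which encode secreted repellents, had 34 peaks, and 2 of the 7, Sema3a and Sema3f, had one within 1 kb of any annotated start. Both were constant-height peaks, with maximum signals of 52 and 37, and 0 of the 7 had a peak at the gene 5′ end. Among other ligands, Efna2 at 29 and Ntn4 at 10 had lower start peaks. Sema3a, the classic growth-cone-collapsing ligand of Nrp1, had 9 peaks of which 1 bore a summit. Their maximum signals ran from 32 to 142 with a median of 102, and the nearest peak to its 5′ end lay 34181 bp away. Sema3g had 2 peaks, both inside the gene and both summit-bearing. The taller, at chr14:31227072-31227321 in intron 15 of 15, reached 380, the highest of the class. Sema3c, which had a single constant-height peak of 95 at 70045 bp from its start, was named after its value was seen, as were Sema3f and the other genes outside the naming rule.

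Class 4 semaphorins, membrane proteins that bind mainly B-type plexins, had a larger share of peaks in promoters than the library. Of their 39 peaks 22, or 56.4% (41.0 to 70.7), lay in promoters within 3 kb of a start, against 24.6% of all annotated peaks, and 0 lay beyond 100 kb. These genes had a median of 7 annotated starts, against 3 over all protein-coding genes, and the part of this in the share was not tested. A start peak was present in 5 of the 6 genes, or 83.3% (43.65 to 97.0), an interval that takes in the 46.7% of all protein-coding genes. At the gene 5′ end the count was 4 of the 6. Sema4d, the ligand of Plxnb1, had 16 peaks with maximum signals of 45 to 145, of which 8 were in promoters. Sema4c, a ligand of Plxnb2, was the gene without a start peak. Its single peak, at chr1:36566441-36567149, reached 247, the highest of the class, but lay 8237 bp upstream within the body of the neighbouring gene Fam178b.

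All 7 genes of classes 5 to 7, transmembrane or membrane-anchored semaphorins, had a summit-bearing peak within 1 kb of a start. The highest such peak per gene fell in a narrow band, from 209 to 280 with a median of 233. At the gene 5′ end the count was 5 of 7, since the start peaks of Sema6b and Sema6d lay at internal starts. Sema7a, whose receptor is Plxnc1, carried 12 peaks, all within 1 run of 35.2 kb in which neighbours lay at most 10 kb apart. Its start peak at chr9:57939239-57940752 was 1514 bp wide, with a maximum signal of 233 and a total signal of 148984. Sema6d, which binds Plxna1, had 25 peaks, 17 of them beyond 100 kb. Its start peak, at an internal start, reached 229, and the nearest peak to its 5′ end lay 11076 bp away. Its tallest, 298, lay 94148 bp past an annotated start at chr2:124747693-124748017, outside protein-coding genes. The start of Sema5a was covered by a peak of 220 that the deposited annotation assigns to the non-coding gene Snhg18, so it is not among the 845.

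Of the 97 ephrin peaks 63, or 64.9% (55.0 to 73.7), lay beyond 100 kb of the assigned start, against 15.2% of all annotated peaks. Efnb2 and Efna5 accounted for 62 of the 63, and the other 6 genes had 1 such peak among 19. Efnb2, a transmembrane ephrin, had 42 peaks, the most in its class. None lay in a promoter, 37 lay beyond 100 kb, and 38 lay outside protein-coding genes, the farthest 1699 kb away. Their maximum signals ran from 14 to 220 with a median of 74, and the nearest to an annotated start was 3946 bp away. Efna5, a lipid-anchored ephrin, had 36 peaks with 25 beyond 100 kb, reaching to 1767 kb. It also had a summit at the start itself, at chr17:62880775-62881452 with a maximum signal of 201, next to its tallest of 211 at a distance of 283602 bp.

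Efna3 differed from both. This astrocytic partner of Epha4 in the hippocampus had 6 peaks on a gene of 9.07 kb. The peak at chr3:89322006-89322902, 249 bp inside the start, reached 388 with a total signal of 200164, the tallest of the ephrins. The other 5 ranged from 51 to 131. Its neighbour Efna4 had no start peak and a single constant-height peak of 95.

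Slit1 held the second tallest guidance peak and had none at its start. The nearest peak to an annotated start lay 2003 bp away, was of constant height and reached 79. Of its 18 peaks 16 lay inside the gene body. The tallest, at chr19:41696185-41698013 in intron 4 of 35, reached 630 with a total signal of 269260, the highest total among guidance peaks. It ranked 104 by maximum and 268 by total among all peaks. Peaks of 314 and 286 followed in the same intron, and a run of 9 peaks, 6 of them summit-bearing, filled 28.3 kb around them. Of the 18 maximum signals the median was 102.5, so the height was carried by a few sites.

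Slit3 had 52 peaks, more than any other guidance gene, with 17 summit-bearing and 45 inside its 587 kb body. Their maximum signals ran from 25 to 262 with a median of 112.5. The peak at the start itself was of constant height with a maximum of 99, and a summit-bearing peak of 172 also lay within 1 kb of an annotated start. A further 12 peaks inside the gene body were assigned to Mir218-2, the microRNA gene in one of its introns, or to Pank3.

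Of the 6 netrin and netrin-G genes 4 had a start peak, or 66.7% (30.0 to 90.3), an interval that takes in the 46.7% of all protein-coding genes. The highest start peak per gene ran from 10 to 136 with a median of 107, and 2 of the 6 genes had a peak at the gene 5′ end. Ntng2, a membrane-anchored presynaptic protein, had 10 assigned peaks. The tallest reached 260, at chr2:29194330-29195192, and was placed by the annotation in a 3′ untranslated region. The peak of 136 at its own start was assigned to 6530402F18Rik. Ntn5 had no assigned peak, and the nearest peak to one of its starts lay 22296 bp away.

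Among receptors, plexins and neuropilins had start peaks in 10 of 11 genes, or 90.9% (62.3 to 98.4), against 46.7% of all protein-coding genes. Plxnb3 was the exception at 1047 bp, and 9 of the 10 genes had a summit-bearing start peak. The highest start peak per gene ran from 118 to 473 with a median of 211.5. Promoters held 41 of the 131 peaks, or 31.3% (24.0 to 39.7), an interval that takes in the 24.6% of all annotated peaks. Plxnb2, a receptor for class 4 semaphorins, had the tallest start peak of the group. It lay at chr15:89180553-89181438, 69 bp upstream of the start, with a maximum signal of 473 and a total of 150058. The gene's other 4 peaks ran from 116 to 174.

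Plxnc1 had 22 peaks, of which 10 bore summits. One peak at the start itself, chr10:94944002-94945526, reached 267 with a total signal of 163172, and another of 302 lay 73 bp upstream of an internal start at chr10:94828912-94829842. The summit-bearing start peaks of Sema7a and its receptor Plxnc1 were 1514 and 1525 bp wide. The median width was 609 bp for summit-bearing guidance peaks and 359 bp for all guidance peaks. Such widths were not particular to this pair, since start peaks of Sema4d and Efnb3 were 1708 and 1593 bp wide.

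Nrp1, the co-receptor of Sema3a, had a summit at its start, chr8:128358276-128359221, with a maximum signal of 330 and a total of 155199. A second peak in the gene reached 282. Nrp2, the co-receptor of Sema3f, which takes part in the pruning of mossy fibre branches, had 27 peaks. Its start peak reached 205, and its tallest, 273, lay 146845 bp past the start. A run of 10 of its peaks, 6 of them summit-bearing, covered 24.96 kb around the start. The ligands Sema3a and Sema3f had start peaks of 52 and 37, below those of both co-receptors. Plxna2, which takes part in mossy fibre layering with class 6 semaphorins, also had 27 peaks, with maximum signals of 17 to 212.

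**Figure D3:**
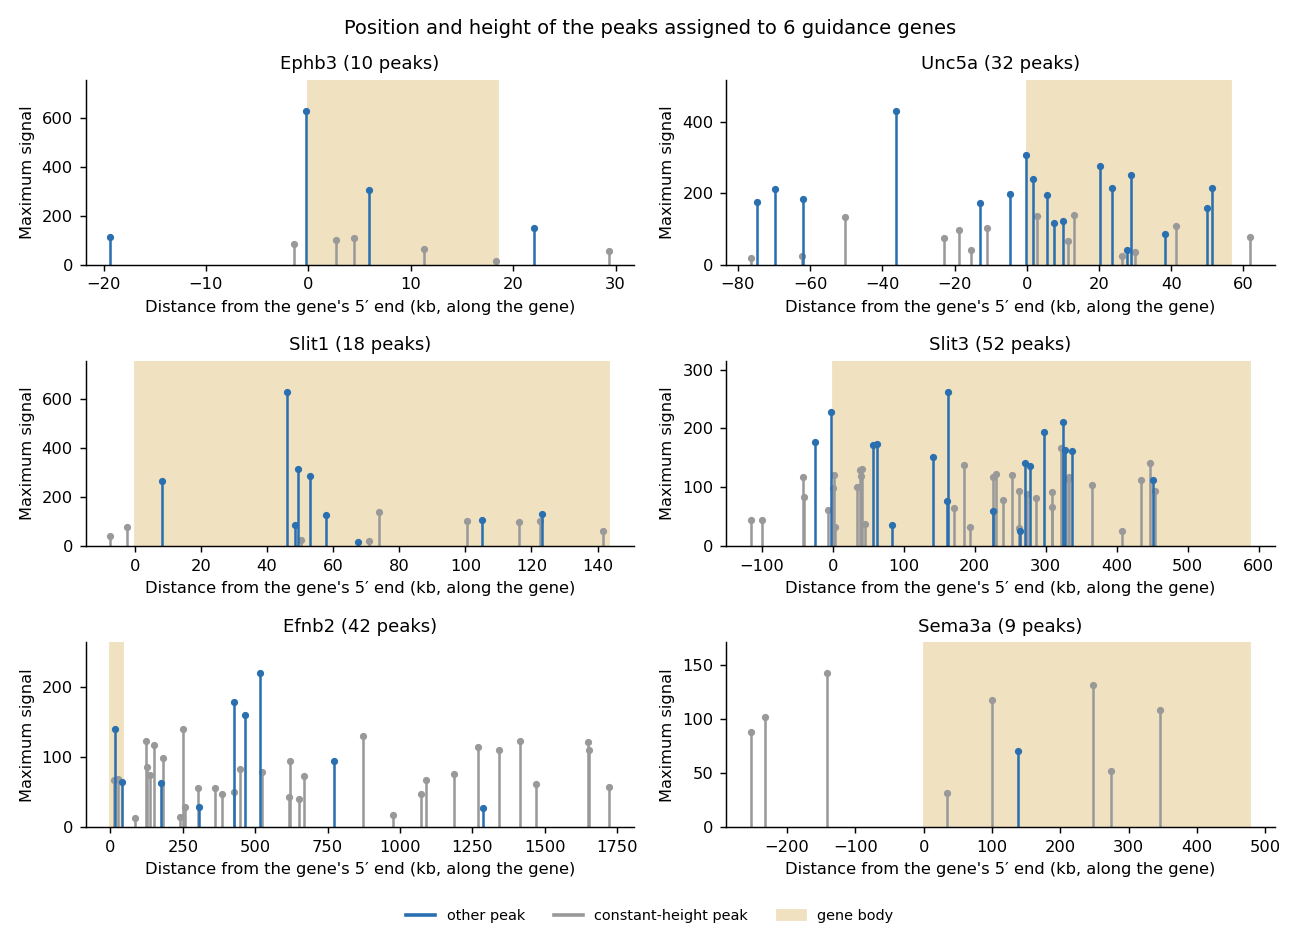
Position (kb from the gene's 5′ end, along the gene, x axis) and maximum signal (coverage units, y axis) of the peaks assigned to Ephb3, Unc5a, Slit1, Slit3, Efnb2 and Sema3a. Shaded bands are gene bodies, blue lines summit-bearing peaks and grey lines constant-height peaks. Ephb3 peaks at its start, Slit1 inside an intron, and Efnb2 has 38 of 42 peaks outside protein-coding genes.

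Peaks of Epha genes were of constant height in 76.9% (68.5 to 83.6) of 117 cases and lay beyond 100 kb in 56.4% (47.4 to 65.1), against 63.3% and 15.2% of all annotated peaks. Among 65 peaks of Ephb genes the shares were 55.4% (43.3 to 66.8) and 24.6% (15.8 to 36.3). Intronic peaks made up 58.5% (46.3 to 69.6) for Ephb and 27.4% (20.1 to 36.1) for Epha, against 38.0% of all annotated peaks. The 16 far Ephb peaks all belonged to Ephb1, and the other 4 Ephb genes had 0 of 40, while Epha2, Epha8 and Epha10 also had none. Distal intergenic peaks made up 56.4% (47.4 to 65.1) for Epha and 10.8% (5.32 to 20.6) for Ephb, against 31.9% of all annotated peaks. Epha genes were the longer, with a median of 148 kb against 28.6 kb, and the difference between the classes was not tested. A start peak was present in 5 of 9 Epha genes, or 55.6% (26.7 to 81.1), and 4 of 5 Ephb genes, or 80.0% (37.6 to 96.4). Both intervals take in the 46.7% of all protein-coding genes.

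Epha6 had the most peaks of its class, 30, of which 25 lay beyond 100 kb. Of these 25, 12 were in introns of the 952 kb gene and 13 were distal intergenic. Its start peak was also the tallest Epha peak, at 289, and lay at chr16:60605419-60605949. Epha7 had a summit of 131 at its start, chr4:28812962-28813600, and 12 of its 16 peaks beyond 100 kb, the farthest at 935 kb. Its tallest, 182, lay upstream at −511183 bp from the start. Epha4, the hippocampal partner of Efna3, had 29 peaks and none within 1 kb of a start; the nearest, 2475 bp away, reached 170. Epha1 had no assigned peak, although 1 peak inside its body was assigned to Zyx.

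Ephb3, a receptor of B-type ephrins, held the tallest guidance peak. It lay 217 bp upstream of the start, at chr16:21204183-21205041, with a maximum signal of 631 and a total of 145577, and ranked 101 among all peaks by maximum. A second peak, at chr16:21210313-21211475 and 104 bp from an internal start, was lower at 306 but wider, with a total signal of 180854. The other 8 of its 10 peaks ran from 16 to 151. Ephb2, which clusters NMDA receptors at synapses, had 19 peaks, with 169 at the start and 332 in intron 3 of 15 at chr4:136742555-136743402. Ephb1 had a start peak of 152 at chr9:102353844-102354816 and a taller one of 339 in intron 10 of 15 at chr9:101975483-101976059. A further 10 peaks inside Ephb1 were assigned to Mir7243. Ephb4, known from vessels as the receptor of Efnb2, had a summit of 91 at its start, chr5:137350121-137350374, and a peak of 196 in an intron.

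Among the Robo receptors, Robo1 had a constant-height start peak of 123, while peaks of 336 (chr16:72393391-72393800, intron 1) and 326 (chr16:73015780-73016286, intron 24 of 28) stood inside the gene. Its 28 peaks had a median maximum signal of 96.5. Robo1, Ephb1, Ephb2, Ephb4 and Unc5c had their tallest peaks in introns, higher than any peak within 1 kb of the gene's starts. Slit1 also had its tallest peak in an intron, but no peak within 1 kb of a start. These are examples among the named genes, and the share over all guidance genes was not counted.

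The 5 netrin receptor genes Unc5a, Unc5b, Unc5c, Unc5d and Dcc each had a summit-bearing start peak, with a highest maximum signal of 110 to 307 and a median of 222. Constant-height peaks made up 53.7% (43.7 to 63.4) of their 95 peaks, an interval that takes in the 63.3% of all annotated peaks. Unc5a, a repulsive netrin receptor, was the most densely covered of them. Of its 32 peaks 18 bore a summit, and 24 formed a single run of 74.9 kb, chr13:54926222-55001129, with maximum signals of 25 to 307. The start peak, at chr13:54948733-54949563, reached 307. A taller peak of 432 lay outside that run, upstream at −36230 bp from the start, at chr13:54912738-54913460. Unc5d had a summit of 264 at its start, chr8:29219108-29220101, and 22 of 26 peaks beyond 100 kb of a start, 20 of them in the body of the 573 kb gene. Unc5c reached 222 at its start and 312 in intron 14 of 15, at chr3:141819016-141819865. Of the netrins proper, Ntn1 reached 106 at a start and Ntn4 reached 10, both below Unc5b at 110 and Dcc at 113, the lowest of these receptors, though the margin to Ntn1 is small.

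The 18 guidance genes without a peak within 1 kb of a start were Epha1, Epha2, Epha3, Epha4, Ephb6, Sema3b, Sema3c, Sema3d, Sema3e, Sema3g, Sema4c, Robo4, Slit1, Efna4, Efnb2, Ntn3, Ntn5 and Plxnb3. They comprised 11 ligands and 7 receptors, and 7 of them had a peak within 3 kb. The nearest peak lay at 1047 to 70045 bp, with a median of 3929 bp. Of the 53 genes with a start peak, 8 had constant-height peaks only.

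Co-receptors, adhesion partners and cytoplasmic effectors of the same pathways were read alongside as a list of 51 genes. A start peak was present in 44 of them, or 86.3% (74.3 to 93.2), and a summit-bearing one in 35, against 46.7% and 32.1% of all protein-coding genes. At the gene 5′ end the count was 33, or 64.7% (51.0 to 76.4), close to the 64.8% of the guidance genes. This list is longer still, with a median gene length of 118 kb, and its intervals overlap those of the guidance genes. The collapsin response mediator Dpysl2 had a start peak of 274. The tallest belonged to Rgmb, a repulsive guidance molecule, at 298, and to Ngef, an effector of Eph receptors, at 291. No start peak was found for Ablim3, Dpysl4, Farp1, Limk1, Mical1, Rhoa or Srgap1.

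Away from starts, the guidance peaks lay farther out than peaks in general. The median distance to the assigned start was 38558 bp against 14783 bp, and 297 peaks, or 35.1% (32.0 to 38.4), lay beyond 100 kb, against 15.2% of all annotated peaks. These 297 came from 27 genes, and 150 of them from 6, namely Efnb2, Efna5, Epha6, Slit3, Unc5d and Robo2. Without Efnb2 and Efna5 the share was 30.6%. Guidance genes are long, with a median of 56.6 kb against 17.4 kb over all protein-coding genes. The part of gene length in these distances was not tested. Promoter peaks made up 20.5% (17.9 to 23.3) against 24.6%, and peaks within 1 kb of a start 10.7% (8.75 to 12.9) against 15.3%. Introns held 42.6% (39.3 to 46.0) against 38.0%, and distal intergenic space 31.1% (28.1 to 34.3) against 31.9%. The first intron held 108 of 360 intronic peaks, or 30.0% (25.5 to 34.9), against 32.7%.

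**Figure D4:**
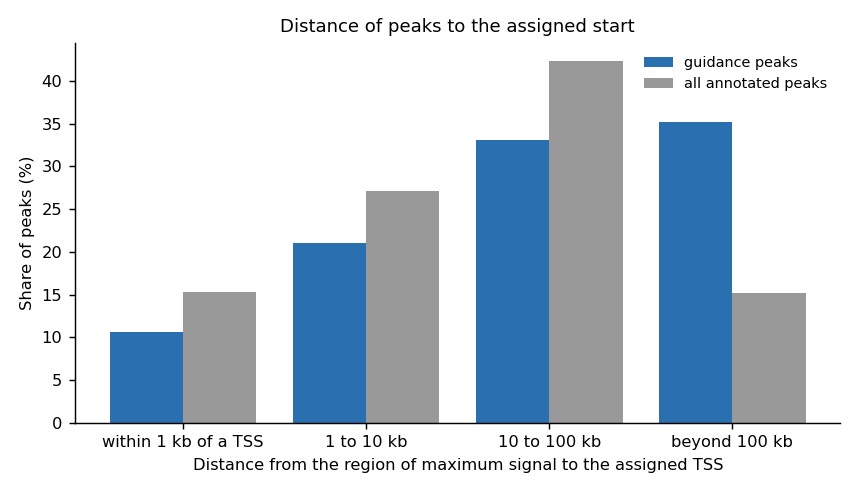
Share of peaks (%, y axis) by distance from the region of maximum signal to the assigned start (x axis), for guidance peaks (blue) and all annotated peaks on chromosomes 1 to 19, X and Y (grey). Guidance peaks have the larger share only in the class beyond 100 kb, at 35.1% against 15.2%.

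Relative to the genes themselves, 467 peaks (55.3%) lay in the body of the assigned gene, 23 in the body of another protein-coding gene and 355 (42.0%) outside protein-coding genes. The bodies held 559 peaks in all, of which 92 (16.5%) in 22 genes carried another gene's symbol. Plxna4, named after its value was seen, was the extreme, with 20 of 24 body peaks assigned to Plxna4os1 or 1700012A03Rik. Counts by symbol therefore understate such genes.

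Peak density, the number of peaks per length of gene body, had a median of 7.11 per 100 kb (quartiles 2.16 and 15.3) over guidance genes and 3.34 over all protein-coding genes. With all bodies pooled the order was the opposite, at 4.56 for guidance genes and 5.45 for all protein-coding genes. In genes up to 50 kb the medians were 10.8 and 2.15, and from 50 to 200 kb they were 8.49 and 4.43. In genes over 200 kb the order turned, to 2.21 against 3.73. Unc5a reached 30.0 peaks per 100 kb, 8.72 times the mean of its chromosome, and Sema7a 30.8. The highest value, 49.1 for Efnb3, rests on 3 peaks in a gene of 6.11 kb. Slit3 at 9.71 stood out among the long genes, while Robo2, Dcc and Slit2 lay at 1.15, 1.18 and 1.23 and Sema3c at 0. Across the 71 genes, Spearman's rank correlation between length and number of body peaks was 0.74, and between length and density −0.29, against 0.66 and 0.23 over all protein-coding genes. These correlations across genes are descriptions, since genes of 1 library share its depth and mapping.

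**Figure D5:**
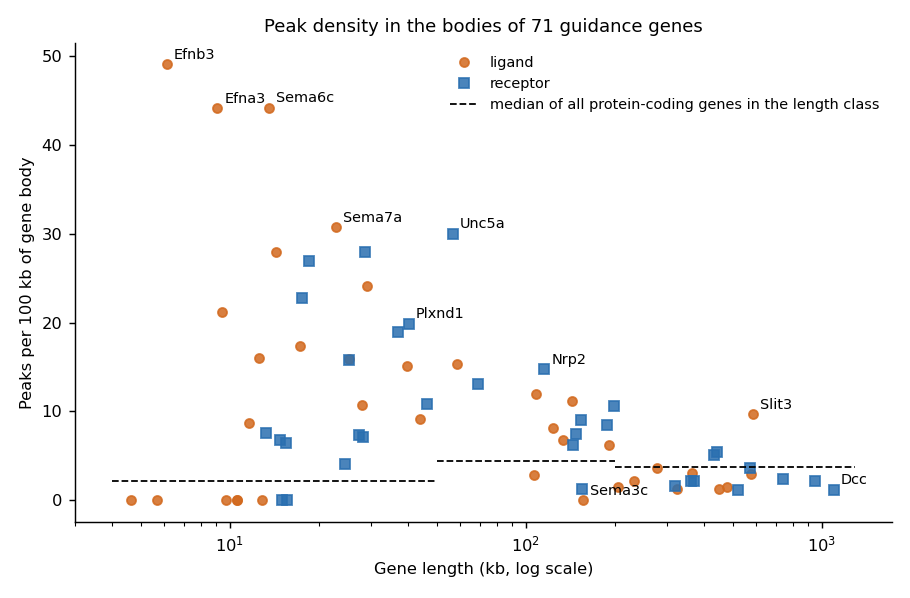
Peaks per 100 kb of gene body (y axis) against gene length (kb, log scale, x axis) for 37 ligand genes (orange circles) and 34 receptor genes (blue squares). Dashed lines are medians of all protein-coding genes in 3 length classes, at 2.15, 4.43 and 3.73, and most guidance genes over 200 kb lie below the line, with Slit3 above it at 9.71.

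Base composition followed distance from the start, in guidance peaks as in the library. Over summit-bearing guidance peaks, 200 bp windows at the region of maximum signal had a GC content of 61.6% ± 8.98 (SD over 57 peaks) within 1 kb of a start. This was 54.8% ± 7.37 for 88 peaks at 1 to 10 kb, 51.7% ± 7.13 for 99 peaks at 10 to 100 kb, and 47.2% ± 7.44 for 71 peaks beyond 100 kb. The median CpG count per window went from 10 to 2, 2 and 1, and the median maximum signal from 172 to 147, 126 and 111. All summit-bearing peaks of the library had mean GC contents of 60.7%, 51.7%, 50.2% and 47.8% over the same distances. Their median CpG counts were also 10, 2, 2 and 1, and their median maximum signals 160, 132, 128 and 117. The share of guidance peaks that bore a summit was 63.3%, 49.4%, 35.4% and 23.9% in the 4 classes, against 55.5%, 36.4%, 33.8% and 26.2% of all peaks.

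The insulin response sequence, the element reported for PARIS, was searched as TATTTTT or TATTTTG on either strand in those windows. It was present in 76 of 845 guidance windows, or 8.99% (7.25 to 11.1), against 9.95% of all peaks. Windows of the same length 1000 bp to the left and right held it in 15.1% (12.9 to 17.7) and 14.2% (12.0 to 16.7) of guidance peaks, against 13.6% and 13.5% for all peaks. The element is rich in A and T, and GC content was 48.9% ± 9.34 (SD over 845 peaks) at the region of maximum signal against 45.6% and 45.4% in the flanks. The part of base composition in that difference was not tested. Among the 315 summit-bearing guidance peaks 18 windows, or 5.71% (3.64 to 8.85), held it, against 7.0% of all such peaks. It was found in 0 of the 57 within 1 kb of a start, against 3.71% of all such peaks, and in 9 of the 71 (12.7%) beyond 100 kb, against 10.05%.

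Matches at 4 of the taller guidance peaks are printed because they place the element beside a summit, with 27 bases on either side. They are reference sequence of the same build along the strand of the gene, and capitals mark the match. A match is a description of the letters and not evidence of contact.
Ephb1, chr9:101975663-101975723 (−): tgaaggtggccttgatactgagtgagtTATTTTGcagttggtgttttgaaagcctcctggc
Unc5d, chr8:28871377-28871437 (−): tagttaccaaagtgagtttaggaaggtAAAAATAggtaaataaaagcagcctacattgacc
Plxnc1, chr10:94904992-94905052 (−): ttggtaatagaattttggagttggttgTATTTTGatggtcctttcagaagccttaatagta
Slit3, chr11:35418303-35418363 (+): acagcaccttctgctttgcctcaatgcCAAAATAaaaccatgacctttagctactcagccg

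The peaks with these matches had maximum signals of 339 (Ephb1), 200 (Unc5d), 196 (Plxnc1) and 194 (Slit3). All lay away from the gene's start, the nearest at 17682 bp from one for Plxnc1. The 5 tallest guidance peaks, in Ephb3, Slit1, Plxnb2, Unc5a and Efna3, held no such match in their windows. The share was 5.71% of summit-bearing guidance peaks and 7.0% of all such peaks, so 5 windows are too few to set these peaks apart.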

How the data were processed

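The authors' steps, per the labels' protocols, were read trimming, Bowtie2 alignment to mm10, a filter on alignment quality and duplicates, and SEACR peak calling with IgG as the control track. Versions, SEACR settings and any scaling are not given in the sources used here. The deposited peak list holds each peak's total and maximum signal, and the deposited annotation holds the class, gene and distance to a start, with its tool not stated; both cover the anti-FLAG library (1 library), and the IgG library has no file here. The annotation's total signal equalled that of the peak list for 100% of 99782 peaks.

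Peaks were joined to GENCODE M21 and GRCm38.p6, both mm10, in Python 3.11.15 with pandas 2.3.3, numpy 2.4.6 and pysam 0.24.0; 98.9% of annotated peaks had their transcript in M21, with the same start and end for 100% of these. Figures used matplotlib 3.10.9, and intervals scipy 1.17.1. A start peak is one whose region of maximum signal lies within 1 kb of an annotated transcript start. The counting was tested on simulated data.

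The genes named are those with the most peaks or the highest maximum signal in each subfamily, those of the 10 guidance peaks highest by maximum and by total signal, those with a summit-bearing peak at distance 0 from a start, those without a peak, and their ligand or receptor partners. Members, lists and the constant-height measure were chosen with earlier results of these data known. Alternatives were stricter sets of peaks, other distances, thresholds and windows.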

Additional observations from a re-analysis of the deposited data

How the results depend on the processing

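Each of the 8 results was recomputed under the alternatives that apply to it, 40 values in all, of which 15 stayed within the limits set for an unchanged result, 25 moved and 0 reversed; the values below are those that moved, and their causes were not tested beyond the fewer peaks each set holds. The number of guidance peaks was 315 without constant-height peaks, 442 among peaks with a maximum signal above the median of the library and 80 among the top 10% by total signal. In those 3 sets the promoter share was 30.8%, 25.3% and 53.8%, the share within 1 kb of a start 18.1%, 13.8% and 40.0%, and the median maximum signal 136, 133 and 213.5. The median density per 100 kb was 2.09, 3.01 and 0.271. All annotated peaks without constant-height ones had 32.7% in promoters, 23.2% within 1 kb of a start and a median maximum signal of 134. The other sets were chosen by signal, and values over all peaks in them are not given here. The constant-height share was 49.8% above the median, 2.5% in the top 10% and 51.4% among peaks at least 200 bp wide, where the promoter share was 23.3%. The share near a start was 7.57% within 500 bp and 20.5% within 3 kb, against 11.5% and 24.6% of all annotated peaks. The insulin response sequence was found in 5.71% without constant-height peaks, 5.0% in the top 10% and 17.8% with 400 bp windows. Over all peaks it was found in 7.0% without constant-height peaks and 19.3% with 400 bp windows. Guidance genes with a start peak numbered 29 in the top 10% by total signal and 45 to 60 under the other 6 alternatives. No paired analysis was possible because each antibody has 1 library. Depth is unknown, so for a gene without a peak, no signal and no coverage cannot be told apart.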
